A study of Mus musculus with 10 samples.

Results

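The oligoadenylate synthetase (Oas) family was examined in colonic intestinal epithelial cells (IECs) of WT and RhoB-/- mice. The gene table holds 55487 rows, of which 12 are named Oas or Oasl, and 8 of these make up the set described here, namely Oas1a, Oas1b, Oas1c, Oas1g, Oas2, Oas3, Oasl1 and Oasl2. These 8 were selected on measured values of the WT against RhoB-/- contrast itself, so every difference between genotypes that is given for them is a description without a test. The remaining 4 rows are Oas1d, Oas1e, Oas1f and Oas1h. RNA was sequenced from 5 WT and 5 RhoB-/- libraries, all from colon of C57BL/6J mice, with no treatment named. The age of the mice in the study was 6 to 8 weeks unless stated otherwise. RhoB-/- mice carry a homozygous knockout of Rhob, a gene for a small GTPase. The knockout mice were generated at a centre other than the supplier of the WT males, so genotype and the origin of the mice cannot be told apart. The sample labels do not give the sex of the mice. Nothing in the sample labels says that each library came from a separate mouse, and the p-values below measure only the spread between libraries.

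Oas enzymes are sensors of double-stranded RNA. When they bind it, they join ATP into short 2'-5'-linked oligoadenylates (2-5A), a signal of infection inside the cell. The genes belong to the set that type I and type III interferons induce, and in the intestinal epithelium they are part of the defence against viruses. Mice carry many copies of the Oas1 gene, along with a single Oas2 and Oas3 and a pair of Oas-like genes that have ubiquitin-like repeats at their C-terminus.

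Levels are given as TPM, a relative transcript abundance that the authors deposited and that corrects for gene length, so that levels of different genes can be set side by side. Differences between genotypes are means of log2(TPM + 1) in RhoB-/- minus WT with the limma standard error (SE), a scale that understates the difference of genes with low TPM. In RNA from bulk samples, fewer cells of a type and less RNA per cell cannot be told apart. The targeted gene was read first. Rhob had a TPM of 170.5, 302.8, 364.9, 333.4 and 388.7 in WT replicates 1 to 5. In the RhoB-/- libraries it had 0.09, 0.10, 0.35, 0.57 and 110.9. The library labelled RhoB-/- replicate 5 therefore carried Rhob transcripts at a level that its label does not account for, below each WT library and far above the other 4 RhoB-/- libraries, and the differences of the members are given with it and again without it.

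All family members lie on mouse chromosome 5 in 2 groups (GRCm38, GENCODE M21). Oasl2 and Oasl1 are neighbours within 41.0 kb, chr5:114896936-114937915, and the other 10 Oas genes span 191.3 kb, chr5:120730333-120921652. RefSeq promoter windows of 300 bases, 250 before and 50 after the start of a gene (build GRCm38.p6), were found for 6 of the 8 members, and Oas2 and Oas1b had no entry. The letters GAAANNGAAA, the core of the interferon-stimulated response element, were searched on both strands. They were present in the windows of 4 of these 6 members (Oas1a, Oas1g, Oas1c and Oas3) and not in those of Oasl1 and Oasl2. Among all 32851 windows of this length 3.44% held the letters. A match is a description of the letters and not of binding, and a window without them says nothing about the factor.

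The stretches next to the start are shown for these genes because 3 of them share the same letters, with bases that belong to a match in capitals. Sequences are written 5' to 3' on the strand of the gene. For Oas1a and Oas1g they are the 120 bases before the start, at chr5:120907526-120907645 and chr5:120887614-120887733, both on the minus strand. For Oas3 they are the 120 bases before the start at chr5:120777660-120777779 on the minus strand. The last is the 94 bases between the RefSeq extents of Oas1c (minus strand) and Oas1b (plus strand), which point away from each other, at chr5:120812541-120812634, written on the plus strand, that of Oas1b. In GENCODE, whose Oas1c ends farther from Oas1b, 120 bases lie between the genes.
Oas1a: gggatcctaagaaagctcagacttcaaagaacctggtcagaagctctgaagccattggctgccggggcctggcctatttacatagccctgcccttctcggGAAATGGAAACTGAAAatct
Oas1g: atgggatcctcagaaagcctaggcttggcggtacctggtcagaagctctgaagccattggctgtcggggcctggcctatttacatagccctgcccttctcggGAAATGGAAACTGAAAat
Oas3: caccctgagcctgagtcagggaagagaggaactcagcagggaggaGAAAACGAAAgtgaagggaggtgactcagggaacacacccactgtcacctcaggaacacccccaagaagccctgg
Oas1c and Oas1b: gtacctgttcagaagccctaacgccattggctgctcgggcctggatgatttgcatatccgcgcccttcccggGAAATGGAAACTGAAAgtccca

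In Oas1a, in Oas1g and between Oas1c and Oas1b, 2 matches overlap in the same run of 16 capitals. Oas1a and Oas1g have 56 bases in a row in common there, and the run between Oas1c and Oas1b shares 19 bases in a row with each of them. The capitals end 4 bases before the start of Oas1a, 2 bases before that of Oas1g and 6 bases before that of Oas1b. The same letters begin 98 bases from the start of Oas1c used for its promoter window and read on the strand opposite to that gene. Oas3 has a single match, which ends 65 bases before its start.

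Oas1a and Oas1g encode enzymes with a single catalytic unit, and they were the most abundant members in WT epithelium. Oas1a (ENSMUSG00000052776, chr5:120896256-120907521) had a TPM of 33.1, 43.1, 37.0, 33.0 and 33.9 in WT replicates 1 to 5 and of 131.8, 148.6, 181.8, 187.0 and 216.4 in the RhoB-/- libraries. Every RhoB-/- library lay above every WT library, with replicate 2 the highest in WT and replicate 5 the highest in RhoB-/-. The mean in RhoB-/- was 173.1 ± 33.3 (SD, n = 5) against 36.0 ± 4.26 (SD, n = 5) for WT, a difference of 2.22 (SE 0.14) on the log2(TPM + 1) scale and 2.13 without RhoB-/- replicate 5. Oas1g (ENSMUSG00000066861, chr5:120876142-120887613) had a TPM of 19.7, 26.5, 20.96, 19.1 and 20.2 in WT and of 89.3, 101.6, 116.9, 121.5 and 138.3 in RhoB-/-. Its libraries fell in the same order as those of Oas1a within RhoB-/-, without overlap between the genotypes, and the difference was 2.35 (SE 0.13), or 2.28 without RhoB-/- replicate 5.

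The values of Oas1a and Oas1g are uncertain as single genes. Their main transcripts are 97.5% identical over 1860 aligned positions. Of all stretches of 100 bases in Oas1a transcripts, 40.9% also occur in another gene, chiefly Oas1g, and for Oas1g the share is 31.2%. None of the stretches of this length in the other 6 members occurs in another gene, and at 50 bases the share is 9.82% for Oas1c, 2.78% for Oas1b and below 1% for Oas2, Oas3, Oasl1 and Oasl2. Reads from the shared stretches are divided between the genes by the quantifier, and how well it did so was not tested. The sum of their TPM reached 286.6 ± 52.2 TPM (SD, n = 5) in RhoB-/- against 57.3 ± 7.22 TPM (SD, n = 5) for WT. The ratio of Oas1a to Oas1g TPM ranged from 1.62 to 1.76 over the WT libraries and from 1.46 to 1.57 over the RhoB-/- libraries, and these ranges do not overlap.

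Oas1b and Oas1c stand head to head, with the last stretch shown above between them. Oas1b is the gene behind resistance to flaviviruses in wild mice and is truncated in common laboratory strains, and the annotation lists it as a polymorphic pseudogene. It had a TPM of 0.66, 1.25, 0.46, 1.28 and 0.60 in WT and of 6.88, 7.87, 7.78, 10.5 and 10.5 in RhoB-/- libraries (ENSMUSG00000029605, chr5:120812635-120824163). Oas1c, a family member without known synthetase activity, had 1.73, 1.93, 1.26, 1.18 and 1.91 in WT and 2.03, 3.08, 3.33, 2.60 and 3.47 in RhoB-/- libraries (ENSMUSG00000001166, chr5:120800194-120812514). The lowest RhoB-/- library of Oas1c, replicate 1, was 1.05 times the highest WT library, so its genotypes were separated by a narrow margin, while for Oas1b the same ratio was 5.38.

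The difference on the log2(TPM + 1) scale was 2.40 (SE 0.17) for Oas1b and 0.58 (SE 0.16) for Oas1c. Without RhoB-/- replicate 5 the values were 2.33 and 0.53. Oas1b had less TPM than Oas1c in 4 of 5 WT libraries and more in all 5 RhoB-/- libraries, with a ratio of Oas1b to Oas1c from 0.314 to 1.08 in WT and from 2.34 to 4.03 in RhoB-/-. These neighbours thus took opposite orders in the 2 genotypes, apart from WT replicate 4.

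Oas2 and Oas3 encode the larger enzymes, with catalytic units repeated in tandem, of which Oas3 has the most and binds long double-stranded RNA. Both were barely present in WT epithelium. Oas2 (ENSMUSG00000032690, chr5:120730333-120749853) had a TPM of 2.12, 1.49, 0.94, 1.31 and 1.06 in WT and of 38.3, 44.7, 47.2, 57.6 and 69.1 in RhoB-/-. Oas3 (ENSMUSG00000032661, chr5:120753098-120777661) had 1.72, 1.08, 1.93, 1.11 and 1.56 in WT and 48.5, 53.5, 55.7, 65.3 and 87.9 in RhoB-/-. For both genes the lowest RhoB-/- library was far above the highest WT library, 18.1 times for Oas2 and 25.1 times for Oas3. The ratio of mean TPM was 37.1 for Oas2 and 42.0 for Oas3, and 33.9 and 37.7 without RhoB-/- replicate 5. On the log2(TPM + 1) scale the differences were 4.45 (SE 0.17) and 4.65 (SE 0.16), and 4.34 and 4.52 without that library. With WT levels near 1 TPM the ratios rest on small denominators, and the depth behind them is unknown.

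Oasl1 and Oasl2 encode the Oas-like proteins. Oasl1 lacks synthetase activity and is known to hold back translation of Irf7, the transcription factor that amplifies interferon production, whereas mouse Oasl2 has kept synthetase activity. Oasl2 (ENSMUSG00000029561, chr5:114896936-114912234) had a TPM of 8.08, 11.2, 8.62, 7.0 and 5.59 in WT and of 191.5, 267.1, 236.6, 319.9 and 366.8 in RhoB-/-. The genotypes were wide apart, with the lowest RhoB-/- library at 17.1 times the highest WT library. By difference among the 12870 genes tested, the members ranked from 5 for Oasl2 to 1001 for Oas1c. As they were chosen from this contrast, nothing is read from a rank. Oasl2 had a difference of 4.92 (SE 0.20), or 4.81 without RhoB-/- replicate 5. Its ratio of mean TPM was 34.1, below those of Oas2 and Oas3, so the order of these genes depends on the scale.

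Oasl1 (ENSMUSG00000041827, chr5:114923240-114937915) had a TPM of 10.7, 7.81, 14.8, 8.98 and 14.6 in WT and of 76.3, 70.2, 81.1, 115.3 and 152.2 in RhoB-/-. It was the member with the widest spread within RhoB-/-, where its coefficient of variation was 34.8%, and replicates 4 and 5 stood above the others. Its difference was 2.99 (SE 0.23), and 2.82 without RhoB-/- replicate 5. The promoter windows of both Oasl genes lack the letters searched.

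**Figure D1:**
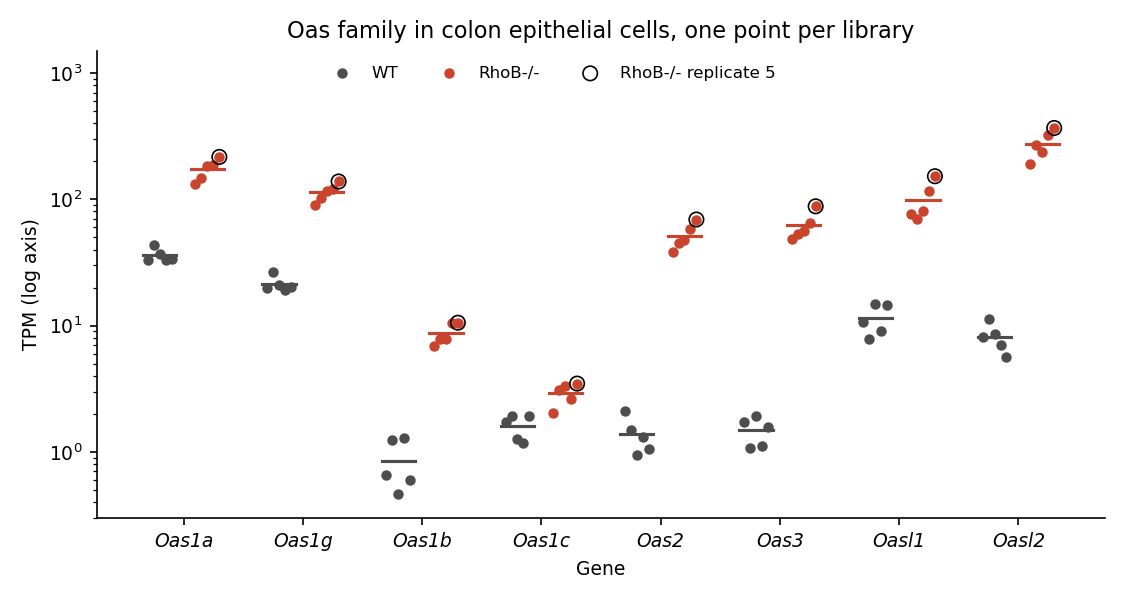
TPM of the 8 members on a log axis, with one point per library, grey for WT and red for RhoB-/-, a bar at each mean and a ring around RhoB-/- replicate 5. In each gene the RhoB-/- points lie above the WT points, with the smallest gap in Oas1c, where the lowest RhoB-/- library was at 2.03 and the highest WT library at 1.93.

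All 8 members passed the filter of a mean TPM of at least 1 over the 10 libraries, and in all 8 the RhoB-/- libraries lay above the WT libraries. Oas1b passed the filter only through the RhoB-/- libraries, with means of 0.85 TPM in WT and 8.71 TPM in RhoB-/-. Over the 12870 genes tested, 768 (5.97%) had all RhoB-/- libraries above all WT libraries. Under the call rule used for other genes, a fold change above 1.5 with a Benjamini-Hochberg adjusted p of limma below 0.05, there were 718 higher genes (5.58%) and 918 lower genes (7.13%) in RhoB-/- libraries. Since the members were chosen from this contrast, nothing is read from their count. The median difference of all tested genes was -0.13. When libraries were centred on their own median deviation every difference shifted up by about 0.12, and the calls became 950 higher and 539 lower, a share of higher calls of 63.8% in place of 43.9%.

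Outside these 8, Oas1h was low in both genotypes, at 0.25 to 0.50 TPM in RhoB-/- libraries and 0 to 0.08 TPM in WT libraries. Oas1d did not exceed 0.07 TPM in any library, and Oas1e and Oas1f were listed at 0 in all 10. The RefSeq windows of Oas1h and Oas1f lack the letters GAAANNGAAA.

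The order of the members by level differed between the genotypes. In WT it ran Oas1a, Oas1g, Oasl1, Oasl2, Oas1c, Oas3, Oas2 and Oas1b, with means from 36.0 to 0.85 TPM. The ranges of Oas1a and Oas1g, of Oas1g and Oasl1, and of Oasl2 and Oas1c did not overlap, while those of Oasl1 and Oasl2 and of each neighbour among the last 4 did. In RhoB-/- it ran Oasl2, Oas1a, Oas1g, Oasl1, Oas3, Oas2, Oas1b and Oas1c, with means from 276.4 to 2.90 TPM. There each neighbour down to Oas2 overlapped in range with the next, although within single libraries the order held in all 5 for each of these pairs except Oas1g above Oasl1, which held in 4.

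The family signal as a whole was counted as the summed TPM of the 8 members. It was 77.9, 94.4, 86.0, 73.0 and 79.4 in WT replicates 1 to 5 and 584.6, 696.6, 730.3, 879.7 and 1044.7 in the RhoB-/- libraries. Oas1a supplied 43.8% ± 1.53 (SD, n = 5) of the sum in WT but 22.1% ± 1.68 (SD, n = 5) in RhoB-/-. Oasl2 went the other way, with 35% ± 2.47 (SD, n = 5) in RhoB-/- against 9.79% ± 1.77 (SD, n = 5) for WT. Oas2 and Oas3 together moved from small shares in WT, 1.71% and 1.81% on average, to 6.52% and 7.89%. The share of Oasl1 was 14% in WT and 12.4% in RhoB-/-, with ranges that overlap.

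**Figure D2:**
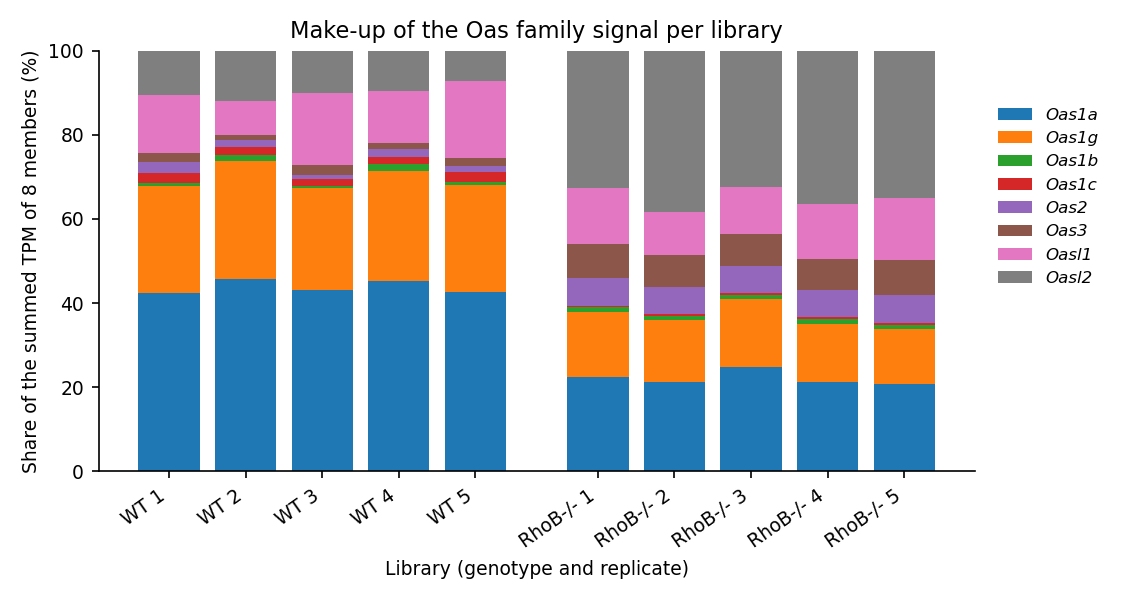
Share of the summed TPM of the 8 members taken by each gene, in percent, with one stacked bar per library. Oas1a fills 42.5% to 45.7% of the bar in WT libraries, and Oasl2 fills 32.4% to 38.3% in RhoB-/- libraries.

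Within the RhoB-/- group the members moved together from library to library. All 8 were highest in replicate 5, and 7 were lowest in replicate 1, the exception being Oasl1, which was lowest in replicate 2. Among all tested genes, 33.0% were highest in replicate 5 and 19.9% lowest in replicate 1. Oas1c departed from the rest, above its group mean in replicate 2, where the other 7 were below theirs, and below it in replicate 4, where the other 7 were above. In WT no library held this place for the family, since replicate 2 was highest for 4 members and replicate 4 lowest for 3. The library with Rhob transcripts, labelled RhoB-/- replicate 5, was therefore the one with the highest level of each member, farther from WT than the other 4.

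**Figure D3:**
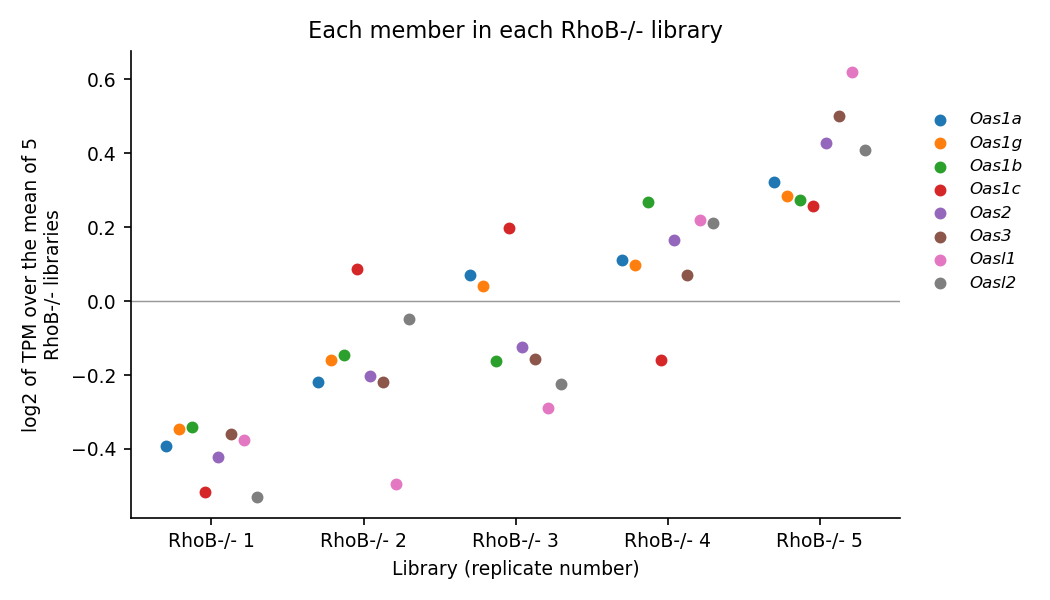
log2 of the TPM of each member in each RhoB-/- library over its mean in the 5 RhoB-/- libraries, one colour per gene. All 8 points of replicate 5 are above 0, from 0.26 for Oas1c to 0.62 for Oasl1, and all points of replicate 1 are below 0.

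The partners of the synthetases were followed next, in a list of genes tied to the 2-5A pathway. Cgas, which shares the fold of the enzyme, and Sting1 were added to it. From this list 6 genes that were tested and not called are described. Pde12 and Akap7, whose products degrade 2-5A, had differences of 0.08 (SE 0.12) and -0.16 (SE 0.13), and Abce1, an ATPase of ribosome recycling, had -0.34 (SE 0.13, limma adjusted p = 0.0888). Pnpt1, a mitochondrial RNA exonuclease, had 0.04 (SE 0.12). Cgas, a DNA sensor with the synthetase fold, and Sting1, its adaptor, had -0.14 (SE 0.16) and -0.16 (SE 0.27).

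Among 11 RNA sensors and their cofactors, 10 passed the filter, and of these 9 were called higher and none lower, beside 5.58% higher over all tested genes. Like the signalling list below, this list was written with earlier results of these data known, so the count is not an independent comparison. The median difference of the list was 1.65. Ddx60, a helicase that aids RNA sensing, and Zbp1, a sensor of Z-form nucleic acid, had the largest values, 3.81 (SE 0.22, limma adjusted p = 4.33e-07) and 3.57 (SE 0.21, limma adjusted p = 5.23e-07). The cytosolic helicases Ddx58, Ifih1 and Dhx58 had 1.89, 1.59 and 2.58, and Eif2ak2, the kinase PKR that also binds double-stranded RNA, had 1.09 (SE 0.18, limma adjusted p = 0.00171). Mavs, the adaptor through which Ddx58 and Ifih1 signal, was not called, at -0.06 (SE 0.12). Tlr7 fell below the filter, with at most 0.09 TPM. All 9 called sensors were highest in RhoB-/- replicate 5 and 4 were lowest in replicate 1, beside 33.0% and 19.9% of all tested genes. Without RhoB-/- replicate 5, 9 were called.

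Of 23 interferon signalling genes 22 were tested, with 8 called higher and none lower, beside 5.58% higher and 7.13% lower over all tested genes, and a median difference of 0.50. Of the 8 called genes, 4 were highest in RhoB-/- replicate 5 and 3 lowest in replicate 1, beside 33.0% and 19.9% of all tested genes. Stat2 and Irf9, which act at the interferon-stimulated response element, were among the called genes, with differences of 2.03 (SE 0.16, limma adjusted p = 6.53e-06) and 1.55 (SE 0.11, limma adjusted p = 1.97e-06). Irf7, the target of Oasl1, had a TPM of 37.0 to 84.0 in WT and 306.7 to 564.3 in RhoB-/- (difference 3.05, SE 0.23, limma adjusted p = 3.89e-06), and Usp18, which limits interferon receptor signalling, had 0.91 to 2.03 and 32.4 to 64.6 (difference 4.25, SE 0.20, limma adjusted p = 1.14e-07).

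Called genes of this list with smaller differences were Socs1, a brake on Jak kinases, at 0.89 (SE 0.19), Ifnlr1, the chain of the type III interferon receptor that epithelial cells carry, at 0.70 (SE 0.16), and Irf1 at 0.66 (SE 0.18). Their limma adjusted p were 0.00879, 0.0118 and 0.0221. The call of Irf1 was lost without any one of WT replicates 1, 2 and 4 and RhoB-/- replicates 1 and 5. Without RhoB-/- replicate 5, 7 genes were called. The call of Irf1 was also lost with no filter beyond a TPM above 0 in 1 library, at the same difference of 0.66. The type I receptor chains Ifnar1 and Ifnar2 were not called, at 0.22 (SE 0.10) and -0.01 (SE 0.16), nor were Jak1 at 0.06 (SE 0.11) and Tyk2 at -0.04 (SE 0.14). Irf5 fell below the filter.

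**Figure D4:**
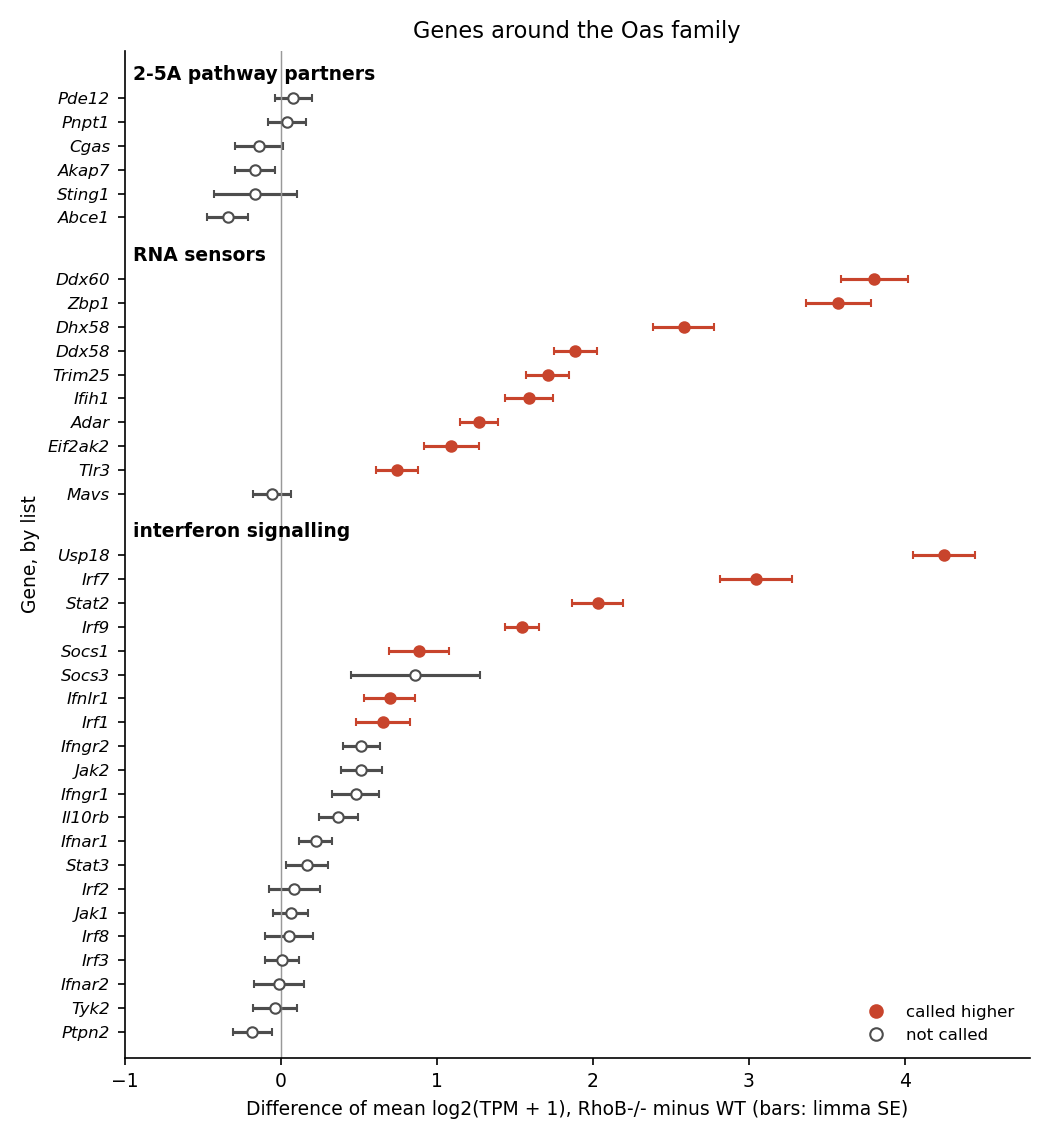
Difference of mean log2(TPM + 1) between RhoB-/- and WT with limma standard errors for 6 partner genes, 10 sensors and 21 signalling genes, filled red where called higher and open where not called. Of the genes drawn, 9 sensors and 7 signalling genes are filled, up to 4.25 for Usp18.

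Transcripts of the ligands themselves were scarce. Of 20 interferon genes, 17 were listed at 0 in all 10 libraries, including Ifnb1, Ifnl3 and the 13 Ifna genes. Ifng had 0.17 to 1.17 TPM in WT and 0.19 to 1.13 TPM in RhoB-/- libraries, Ifnl2 reached 0.25 TPM, and Ifnk reached 0.44 TPM in RhoB-/- libraries and was listed at 0 in WT. The depth is unknown, so a listed 0 does not show that a gene was silent.

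Genes that flank the family were read to see whether the difference ran along the chromosome. The 5 nearest protein-coding genes on each side of both groups make 20 genes, of which 14 passed the filter, with 1 called higher and 1 lower (7.14% each, beside 5.58% and 7.13% over all tested genes) and a median difference of -0.11, against -0.13 over all tested genes. None of the 8 tested neighbours of Oasl1 and Oasl2 was called, and the nearest, 2210016L21Rik, 4243 bases from the pair, had -0.20 (SE 0.12). Trafd1, which at 450073 bases from the larger group was the farthest of the 20 genes, is a negative regulator of innate immune signalling and itself an interferon-induced gene. It had 14.8 to 22.1 TPM in WT and 47.5 to 77.9 TPM in RhoB-/- (difference 1.54, SE 0.15, limma adjusted p = 3.5e-05). Rita1, 117744 bases from the larger group, binds the Notch factor RBP-J and was lower at -0.68 (SE 0.16, limma adjusted p = 0.0123), a call lost when libraries were centred, and Rpl6, not called, was called lower at -0.64 without RhoB-/- replicate 3. Dtx1, a Notch regulator and at 18406 bases the closest of these neighbours to Oas2, was below the filter, with 0.13 to 0.29 TPM in WT and 0.90 to 1.53 TPM in RhoB-/- libraries. By an exact permutation test, two-sided, its p was 0.00794, the smallest that 5 against 5 libraries can give, in 6 such neighbours below the filter.

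**Figure D5:**
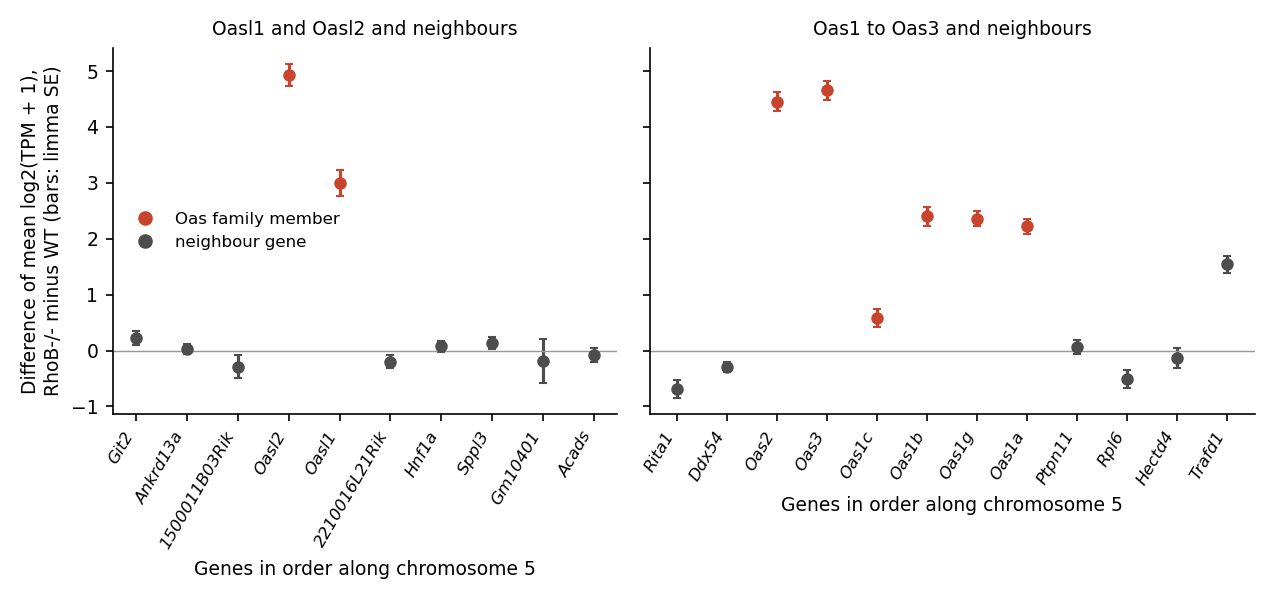
Difference of mean log2(TPM + 1) between RhoB-/- and WT with limma standard errors for members (red) and tested neighbours (grey), in the order of the genes along chromosome 5 and not to distance. Members stand at 0.58 to 4.92, and among the neighbours Trafd1 is the highest at 1.54.

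The 8 tested genes outside the family whose centred log2(TPM + 1) profile lay closest to the mean profile of the members, by root mean square difference over the 10 libraries, were Phf11d, Gbp3, Mx2, Trim30a, Bst2, Herc6, Gm5431 and Slfn5. Their distances ran from 0.18 to 0.25, against a median of 1.63 over all 12862 tested genes outside the family. These genes were picked for the smallest distances, so their gap to that median follows from the choice. Gbp3, Mx2, Gm5431 and Slfn5 passed the filter only through the RhoB-/- libraries, with means of 0.54, 0.50, 0.81 and 0.06 TPM in WT. Gbp3 is a guanylate-binding protein, Mx2 a dynamin-like antiviral GTPase and Bst2 the membrane protein tetherin that holds budding virions. Measured in the same way against the mean of the other 7, Oasl1 was the closest member at 0.34 and Oas1c the farthest at 1.44.

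The cells were checked against markers of the epithelium and of other cell types. The 13 epithelial markers summed to 26689 to 30740.2 TPM in WT and 26518 to 43551 TPM in RhoB-/- libraries, with Car1 the most abundant, and 2 of them, Krt20 and Vil1, were called higher. The 9 markers of T and NK cells summed to 19.3, 10.3, 10.7, 8.98 and 18.5 TPM in WT and to 58.6, 60.9, 60.2, 54.2 and 51.6 TPM in RhoB-/-, without overlap. All 9 had a higher mean in RhoB-/-, Gzma was the most abundant at 4.23 and 24.0 TPM, and the 6 that passed the filter were called higher, beside 5.58% over all tested genes. Among these 6, Cd8a passed the filter only through the RhoB-/- libraries, with means of 0.83 TPM in WT and 2.94 TPM in RhoB-/-. Nothing is read from the call of Cd8a. Cd4 was listed at 0 in 4 WT libraries and did not exceed 0.33 TPM.

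The 4 markers of B and plasma cells summed to 0.18 to 0.89 TPM in WT and 0.93 to 10.9 TPM in RhoB-/- libraries. All 4 were higher on average in RhoB-/-, but 2 had means below 1 TPM in both genotypes. Among the 4, Cd79a had the highest mean in RhoB-/-, 1.85 TPM, but in WT it had 0.024 TPM, below Jchain and Ms4a1. It was listed at 0 in 4 WT libraries and highest, at 6.09 TPM, in RhoB-/- replicate 5. In the other RhoB-/- libraries Cd79a had 0.09 to 1.96 TPM, against 0.75 to 2.11 TPM for Jchain. The highest mean of Cd79a thus rested on RhoB-/- replicate 5. The 8 myeloid markers summed to 1.93 to 3.51 TPM in WT and 4.44 to 16.5 TPM in RhoB-/- libraries, with Cd68 the most abundant. All 8 were higher on average in RhoB-/-, but 5 had means below 1 TPM in both genotypes. Only 2 had all RhoB-/- libraries above all WT libraries. S100a8 was listed at 0 in all WT libraries and in RhoB-/- replicates 2 and 3. Of the 2 myeloid markers tested, Cd68 was called higher (1.19, SE 0.29, limma adjusted p = 0.0154) and Lyz2 was not (0.81, SE 0.29, limma adjusted p = 0.0676). Cd68 and Lyz2 passed the filter only through the RhoB-/- libraries. Their means were 0.99 and 0.87 TPM in WT and 3.74 and 2.4 TPM in RhoB-/-, so nothing is read from the call of Cd68. Ptprc, carried by all leukocytes, was also called higher (1.18, SE 0.22, limma adjusted p = 0.00321), with 1.24 to 2.65 TPM in WT and 3.72 to 9.64 TPM in RhoB-/- libraries. The 6 markers of stroma and endothelium, with Pecam1 the most abundant, summed to 1.46 to 2.06 TPM and 1.16 to 3.64 TPM, ranges that overlap. RhoB-/- replicate 5, with the highest level of each Oas member, had the lowest sum of T and NK cell markers in its group and the highest sums of B cell and myeloid markers. For these cell types, their part in the result was not tested.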

How the data were processed

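Colonic IEC RNA of 5 WT and 5 RhoB-/- libraries was analysed, grouped by the sample labels. The authors trimmed reads with SeqPrep and Sickle and quantified genes with RSEM, and the submitters' processing notes also name HISAT2, StringTie, edgeR and build GRCm38.p6. Tool versions and the annotation release are not given in the sources used here. The deposited TPM values, with 2 decimals, were used as given. TPM keeps no depth, so depth and counting error are unknown, and a gene that takes much of a library lowers the others. Library totals were 971419 to 993229.

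limma 3.58.1 in R 4.3.3 (lmFit, eBayes with intensity trend) was run on log2(TPM + 1) for genes whose mean TPM was 1 or more (12870 of 55487), with Benjamini-Hochberg adjustment over all of them. A gene was called when its fold change exceeded 1.5 and its adjusted p was below 0.05. For genes under this filter an exact permutation test (two-sided) was used. The fit was tested on simulated data. The members and lists were chosen with earlier results of these data known. Named genes were the members, other Oas rows, Rhob, the genes of the lists and the 8 genes nearest in profile, although some genes of the partner and signalling lists are left out of the text and plots. Counts for the signalling list cover the whole list. Promoters came from RefSeq (GRCm38.p6), and transcripts and positions from GENCODE M21. Alternatives were the pseudocount (0.1), the filter, centring of libraries, a replicate block, limma without trend, other call thresholds and leaving out each library. Python 3.11.15, scipy 1.17.1 and biopython 1.88 were used.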

Additional observations from a re-analysis of the deposited data

Results flagged for a closer look

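Values far from the other 4 libraries of their genotype, by the gap to the nearest library over the range of the group, were found 16 times in 167 groups of 5. A rate of 1 in 20 would give 8.35. That rate is no measure of chance here, because the groups share libraries and some hold mostly 0. The widest of the values found above 1 TPM was Rhob, where the library with the label RhoB-/- replicate 5 had 110.87 TPM. Of the 8 members 1 was among them, Oas1g at 26.52 TPM in WT replicate 2, and the same library was far above the other WT libraries for Dhx58 at 7.06, Eif2ak2 at 17.96, Il10rb at 39.27 and Gbp3 at 1.22 TPM. WT replicate 2 was the highest WT library for 46.2% of tested genes. RhoB-/- replicate 5 was far above the other 4 for Irf2 at 50.35 and Slfn5 at 10.75 TPM, RhoB-/- replicate 1 for Socs3 at 56.48 TPM, and RhoB-/- replicate 3 for 2210016L21Rik at 17.32 and Ddx54 at 28.3 TPM. WT replicate 3 stood apart for Irf5 at 1.3 TPM, WT replicate 1 for Trafd1 at 14.79 TPM, its lowest value, and WT replicate 4 for the summed markers of stroma and endothelium at 2.06 TPM. Oas1d at 0.03 TPM in RhoB-/- replicate 3 and Tlr7 at 0.02 TPM in WT replicate 5 were the lone values above 0 in their groups. Their causes were not tested.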

How the results depend on the processing

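For the 8 member differences and the counts of called genes, 232 of 244 values under the alternatives lay within 1 SD of the libraries (differences) or within 1.5 times (counts) of the value reported, and none changed sign. The other 12 are these. With a pseudocount of 0.1 the differences were 3.29 for Oas1b, 0.82 for Oas1c, 5.14 for Oas2 and 5.30 for Oas3, and as the log2 ratio of mean TPM they were 3.36, 0.86, 5.21 and 5.39, since less is added to low values. Genes called lower numbered 539 with centred libraries and 1734 with no minimum fold change, and neighbour genes called 1 and 4, which follows from the shift and from the dropped minimum. Leaving out each library in turn gave 574 to 791 genes higher and 614 to 1347 lower, 9 sensors, 7 to 8 signalling genes and 2 to 3 neighbours, and member differences of 2.13 to 2.31 for Oas1a, 2.32 to 2.48 for Oas1b, 0.52 to 0.67 for Oas1c, 2.28 to 2.44 for Oas1g, 4.34 to 4.55 for Oas2, 4.52 to 4.73 for Oas3, 2.82 to 3.10 for Oasl1 and 4.81 to 5.05 for Oasl2. Centring called 11 signalling genes, with Ifngr1, Ifngr2 and Jak2 added. With a replicate block 715 genes were higher and 812 lower, and the counts of each list were as without it. The replicate numbers do not pair the samples, since same-numbered libraries deviated from their group means with correlations of -0.09 to 0.07. The depth is unknown, and what it limits for the low WT levels of Oas1b, Oas2 and Oas3 cannot be given.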
